A study of Mus musculus with 12 samples.

Results

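Sterol and fatty acid synthesis genes were followed through mouse development before implantation as a set of 36 genes named by symbol, out of 43472 genes in the deposited table. The set covers 7 genes of the mevalonate pathway, 3 that make squalene and close it into lanosterol, and 8 that turn lanosterol into cholesterol. It also covers 6 regulators and carriers of sterol sensing, 5 genes that supply and build fatty acid chains, and 7 that desaturate or lengthen them. All 36 were found. The level of a gene is given in CPM, its reads per 1000000 reads of the library, and 35 of the 36 reached the mean of 3.582 CPM over the 12 libraries that was required for testing.

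The embryos were of the CD1 strain, an outbred stock of mice. As zygotes they had received an siRNA against Tdgf1, which encodes the Nodal co-receptor Cripto, or a negative control siRNA, and in both arms GFP mRNA was injected along with it to mark embryos that had taken up the mixture. Embryos were profiled by RNA-seq as morulae, before the cavity forms, as early blastocysts, when it has formed, and as late blastocysts. Each of the 6 combinations of stage and siRNA held 2 libraries (n = 2), which the labels number 1 and 2. What the number stands for, how many embryos went into a library and whether the 2 libraries came from separate cultures are not given in the sources used here. Every p-value is thus a statement about the scatter of these libraries alone, and that scatter can be technical.

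Libraries held 10524640 to 13770264 reads. A floor of 3 reads, used as a rough and not a hard upper limit on the level behind a count of 0, came to 0.218 to 0.285 CPM. Tdgf1 itself stood at 42.6% to 52.8% of the same-numbered control in 4 of the 6 pairs and at 83.6% in the late blastocyst pair numbered 2. In the early blastocyst pair numbered 2 it stood at 116.5% of the control, so the library labelled Tdgf1 siRNA did not show the knockdown there. The 6 trophectoderm markers summed to 541 to 776 CPM at morula, 1652 to 3690 CPM at early blastocyst and 5286 to 7544 CPM at late blastocyst. Of the 6, Tfap2c went the other way, with means of 153, 122 and 101 CPM. Cdx2 was level between early and late blastocyst (115 and 113 CPM). The 2 late blastocyst libraries numbered 1 stood apart from the 2 numbered 2 in the genes described here, and the number of genes with at least 1 read was also higher in them (23983 and 24374, against 21485 and 22008). Counts of members of the whole set that rose or fell to late blastocyst, and the stage changes of members named with their errors, are given with and without them. Counts of groups without overlap, counts by branch and the changes of genes outside the set are given with all libraries only.

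Cholesterol is built from acetyl-CoA through mevalonate, isoprene units, squalene and lanosterol, and fatty acids are built from the same acetyl-CoA. Cells adjust both branches through the SREBP transcription factors, which Srebf1 and Srebf2 encode. When membrane sterol is plentiful, the proteins of Scap and the Insig genes hold the SREBP precursors in the endoplasmic reticulum. When sterol falls, Scap carries them to the Golgi, where they are cleaved, and the freed part enters the nucleus and binds sterol regulatory elements, commonly beside a CCAAT box that is bound by NF-Y. The growing embryo needs both kinds of lipid for the membranes of new cells, and sterol also for the modification of hedgehog proteins.

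The stretches just before the start of transcription are shown for 5 members, because this is where SREBP sites are searched for: 4 genes that were higher in the late blastocyst libraries numbered 2 (Hmgcs1, Mvd, Nsdhl and Fasn) and Srebf2, whose protein is known to act on sterol genes. RefSeq promoters of the build GRCm38.p6 were matched by symbol for 29 of the 36 members, and Fads1, Fdft1, Fdps, Scd1, Scd2, Sqle and Stard4 were not matched. Capitals mark matches on either strand to the CCAAT box (CCAAT, or ATTGG when it lies on the other strand) and to the sterol regulatory element searched as TCACNCCA, with a longer form TCACNCCAC that contains it. The stretches lie at chr13:119690101-119690350 (plus strand), chr8:122443423-122443672 (minus strand), chrX:72918271-72918520 (plus strand), chr11:120824548-120824797 (minus strand) and chr15:82147019-82147180 (plus strand). Each is written 5′ to 3′ on the strand of its gene and lies outside the transcribed region of the GENCODE annotation. Srebf2 is shown for 162 bases and the others for 250.
Hmgcs1: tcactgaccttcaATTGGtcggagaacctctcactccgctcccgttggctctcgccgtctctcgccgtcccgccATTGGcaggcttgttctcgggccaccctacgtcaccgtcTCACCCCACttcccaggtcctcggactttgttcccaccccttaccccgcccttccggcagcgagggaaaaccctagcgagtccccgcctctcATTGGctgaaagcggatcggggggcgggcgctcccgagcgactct
Mvd: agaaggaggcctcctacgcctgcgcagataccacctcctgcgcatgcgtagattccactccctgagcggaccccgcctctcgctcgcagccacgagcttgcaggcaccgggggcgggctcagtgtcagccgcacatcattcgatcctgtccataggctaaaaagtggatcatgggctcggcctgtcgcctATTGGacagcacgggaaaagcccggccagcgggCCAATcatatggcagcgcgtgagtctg
Nsdhl: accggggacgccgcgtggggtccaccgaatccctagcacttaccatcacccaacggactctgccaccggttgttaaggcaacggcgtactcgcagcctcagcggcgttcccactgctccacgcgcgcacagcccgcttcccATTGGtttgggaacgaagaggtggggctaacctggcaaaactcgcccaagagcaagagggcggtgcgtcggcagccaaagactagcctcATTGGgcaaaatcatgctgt
Fasn: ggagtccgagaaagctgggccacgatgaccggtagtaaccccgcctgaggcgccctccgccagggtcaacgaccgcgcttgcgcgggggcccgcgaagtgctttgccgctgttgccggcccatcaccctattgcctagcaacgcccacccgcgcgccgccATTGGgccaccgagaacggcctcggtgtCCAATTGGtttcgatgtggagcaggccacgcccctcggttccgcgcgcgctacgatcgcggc
Srebf2: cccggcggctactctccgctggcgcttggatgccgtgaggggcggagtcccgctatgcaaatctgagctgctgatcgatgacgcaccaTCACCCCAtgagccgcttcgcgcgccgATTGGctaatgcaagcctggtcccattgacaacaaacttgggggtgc

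In the 250 bases before the start, Hmgcs1 held the longer element 137 bases upstream with CCAAT boxes on both sides of it, at 237, 176 and 45 bases. It was the 1 matched member with TCACNCCAC, which 1.23% of 27025 mouse genes held in a window of that length. The shorter TCACNCCA was found in 3 of the 29 matched members (Hmgcs1, Msmo1 and Srebf2), against 4.20% of all genes. A CCAAT box was found in 23 of the 29, against 37.5% of all genes. Among members with a matched promoter it stood in 8 of the 10 that were higher in late blastocyst libraries numbered 2 and in 15 of the 19 others. The E-box CACGTG, which reads the same on both strands, was found in 6 of the 29, against 6.86% of all genes, and in 0 of those 10. A match is a run of letters and not a bound site, and a missing match says only that these letters are not in the window.

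Per kilobase of exon, the members spanned a wide range of RNA levels. Averaged over the 12 libraries, Fdps, whose enzyme makes farnesyl pyrophosphate, was highest at 66.1 CPM per kb. It was followed by Acat2, which makes acetoacetyl-CoA at the head of the pathway, at 57.0 CPM per kb, the sterol isomerase gene Ebp at 47.5, the fatty acid elongase gene Elovl6 at 46.5 and the stearoyl-CoA desaturase gene Scd2 at 42.2. The order differed between stages. Fdps was highest at morula (52.5 CPM per kb) and early blastocyst (84.3), but at late blastocyst Acat2 stood at 82.4 and Fdps at 61.6, and Scd2 went from 53.2 at early to 30.4 at late blastocyst, below Pmvk (58.3), Idi1 (56.8) and Elovl1 (46.2). The lowest means were those of Fads2 at 0.143, Fads1 at 1.29, Tm7sf2 at 1.40 and Acaca at 1.47 CPM per kb. Fads1 and Fads2 encode the desaturases that make polyunsaturated fatty acids, Tm7sf2 a sterol reductase and Acaca the acetyl-CoA carboxylase that commits carbon to fatty acids. Fads2 averaged 0.472 CPM, with 0 reads in 3 libraries and at most 1.16 CPM, and was not tested. The members just inside the filter were Tm7sf2 (6.18 CPM) and Fads1 (6.20 CPM).

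**Figure D1:**
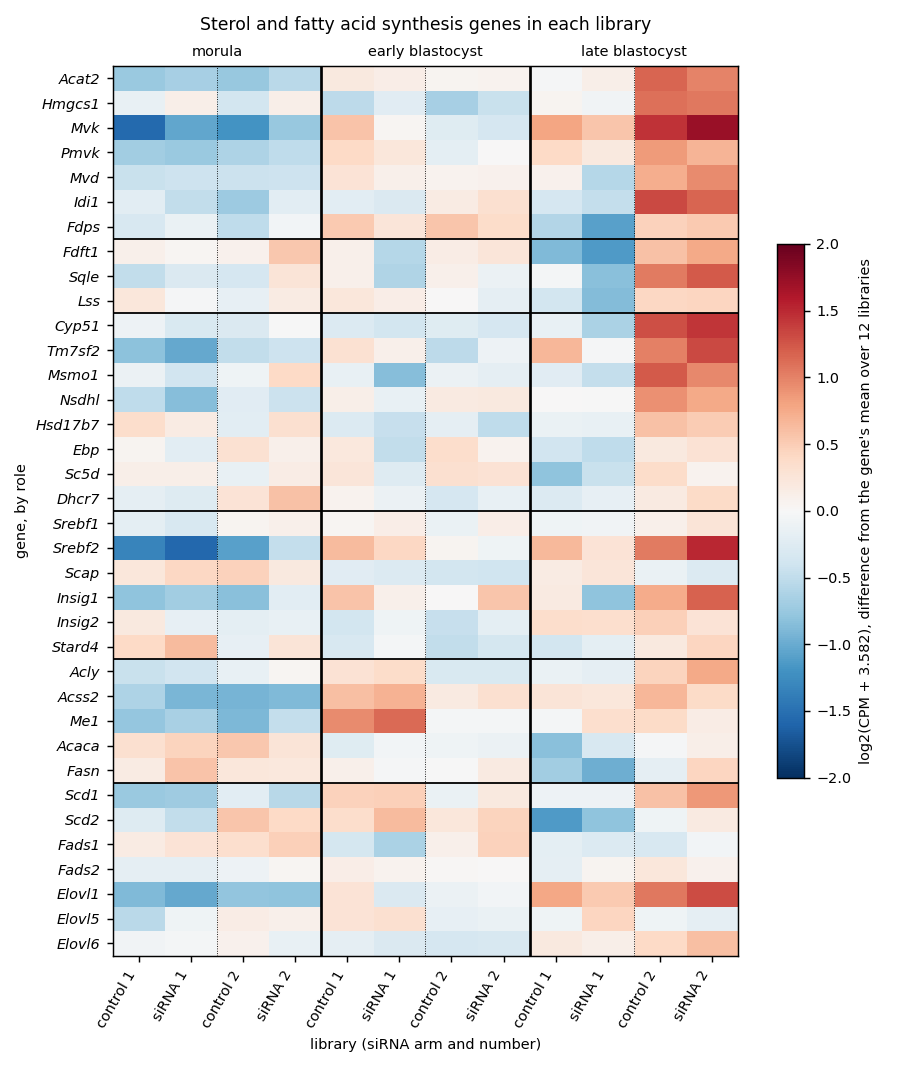
Level of the 36 genes (vertical axis, ordered by role, lines between roles) in the 12 libraries (horizontal axis, by stage and number), as log2(CPM + 3.582) minus the mean of the gene over the 12 libraries. Red is above and blue below the gene's mean. The 2 late blastocyst libraries numbered 2 are red in most genes of the first 3 roles, and the 2 numbered 1 are pale or blue.

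Late blastocyst libraries differed in sterol and fatty acid synthesis RNA by their number, while no difference by siRNA passed. The 2 comparisons came from separate fits, and the step between numbers counts as scatter in the siRNA fit. For Idi1 at late blastocyst the SE was 0.50 in the siRNA fit and 0.16 in the number fit. With the number as a pair, 0 members passed by siRNA as well. In the 2 libraries numbered 2, 15 of the 35 tested members were higher than in the 2 libraries numbered 1, and 0 were lower (limma, adjusted p under 0.05). Of all 10751 genes tested, 0.233% were higher and 0.093% were lower. The 25 genes that were higher included these 15 members (60% of the 25, and 15 of 35 members). The comparison was chosen after the values had been seen, with the control and the Tdgf1 siRNA library of a number as its 2 samples. In RNA from embryos, fewer cells that use a gene and less of its RNA per cell cannot be told apart.

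Genes of the mevalonate pathway and of squalene synthesis held many of these. In control and Tdgf1 siRNA libraries in turn, Idi1, which isomerises the 5-carbon building block of isoprenoids, stood at 99.6 and 89.4 CPM in the late blastocyst libraries numbered 1 and at 321 and 286 CPM in those numbered 2. Both libraries numbered 2 were above every morula and early blastocyst library, whose highest level was 159 CPM. The log2 change, computed on log2(CPM + 3.582) like all changes here, was 1.65 (SE 0.16, adjusted p = 2.43e-05). Fdft1, which encodes squalene synthase, stood at 85.6 and 71.2 CPM in those numbered 1 and at 243 and 273 CPM in those numbered 2. The pair numbered 1 lay below all 8 libraries of the earlier stages and the pair numbered 2 above them, and the log2 change was 1.68 (SE 0.18, adjusted p = 9.84e-05). Hmgcs1, which makes HMG-CoA and carries the sterol regulatory element printed above, stood at 116 and 106 CPM and at 244 and 235 CPM. Its libraries numbered 1 lay within the range of the morula libraries, and the log2 change was 1.09 (SE 0.16, adjusted p = 0.00202).

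Fdps stood at 174 and 121 CPM in the libraries numbered 1 and at 363 and 379 CPM in those numbered 2, with a log2 change of 1.33 (SE 0.17, adjusted p = 0.000406). The upper pair was at the level of the early blastocysts, 378, 388, 312 and 340.4 CPM in controls 1 and 2 and Tdgf1 siRNA 1 and 2, and the lower pair was below every earlier library. Acat2 (1.03, adjusted p = 0.000289) and Mvd, the decarboxylase that ends the mevalonate steps (1.08, adjusted p = 0.0113), were also higher. The kinase genes Mvk (0.91, adjusted p = 0.148) and Pmvk (0.46, adjusted p = 0.303) did not pass, although their groups did not overlap. Sqle encodes squalene epoxidase, the oxygen-using step that follows squalene. It stood at 61.6 and 33.9 CPM and at 133 and 152 CPM, with a log2 change of 1.56 (SE 0.25, adjusted p = 0.00448), and its 2 libraries numbered 1 differed from each other more than those of Idi1 or Hmgcs1. Lss, the lanosterol synthase gene, stood at 30.8 and 20.6 CPM and at 55.4 and 56.2 CPM (1.04, adjusted p = 0.0113).

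Of the 8 genes that act after lanosterol, 3 passed, and for all 8 the levels in number 2 lay above those in number 1 without overlap. Cyp51, the lanosterol demethylase gene, stood at 35.3 and 24.3 CPM in those numbered 1 and at 102 and 112 CPM in those numbered 2. The 8 libraries of the earlier stages lay between 29.9 and 39.0 CPM, so the upper pair stood alone. Its log2 change of 1.74 (SE 0.18, adjusted p = 4.33e-05) was the largest among the members. Msmo1, a methyl sterol oxidase gene, stood at 113 and 94.6 CPM and at 313 and 263 CPM (1.44, adjusted p = 0.000925), and Nsdhl, a sterol dehydrogenase gene, changed by 0.83 (adjusted p = 0.0284). Tm7sf2 (the reductase that acts next after Cyp51), Hsd17b7 (a ketoreductase of the same demethylation steps as Msmo1 and Nsdhl), Ebp (an isomerase), Sc5d (a desaturase) and Dhcr7 (a final reductase) changed by 0.50 to 0.85 and did not pass (adjusted p = 0.17 to 0.378).

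**Figure D2:**
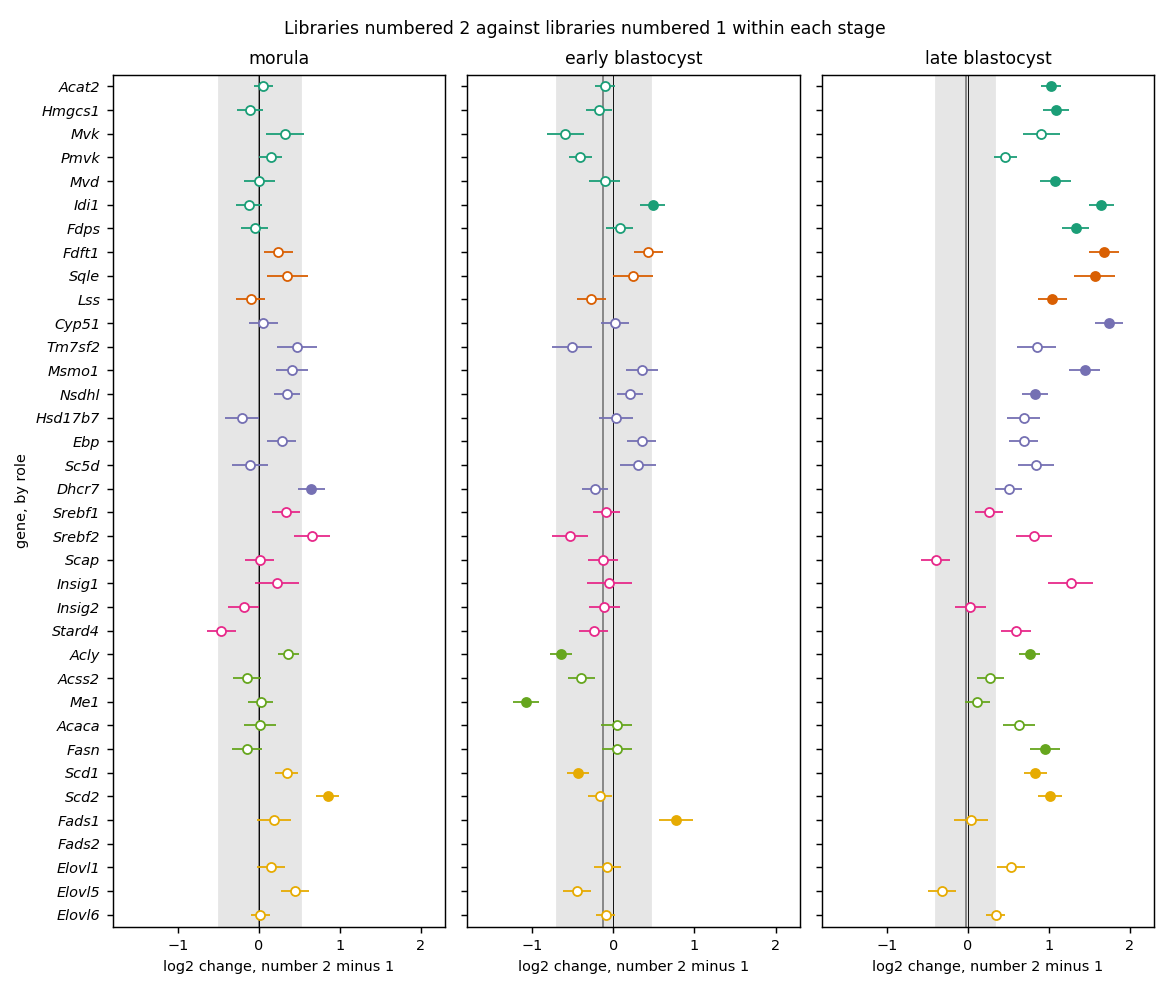
Log2 change from the libraries numbered 1 to those numbered 2 (horizontal axis) for each tested gene (vertical axis, coloured by role) at each stage, with bars of 1 SE. Filled points passed at an adjusted p under 0.05, the grey band spans the 5th to the 95th percentile of all tested genes and the grey line is their median. At late blastocyst 33 of 35 genes lie to the right of 0, against 25 at morula and 13 at early blastocyst.

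Of the 6 regulators and carriers, 0 passed. Insig1, a retention protein whose gene is itself an SREBP target, stood at 72.1 and 34.7 CPM in the late blastocyst libraries numbered 1 and at 107 and 148 CPM in those numbered 2. The groups did not overlap but spread widely, and the log2 change of 1.27 (SE 0.27, adjusted p = 0.0652) did not pass. Srebf2, which encodes the SREBP that favours sterol genes, stood at 41.6 and 31.1 CPM and at 55.8 and 78.7 CPM, a log2 change of 0.82 (SE 0.22, adjusted p = 0.194). Srebf1, whose product favours fatty acid genes, stood at 21.8 and 22.1 CPM and at 25.4 and 28.8 CPM (0.26, adjusted p = 0.802). Scap, the escort of both, was the other way round, 20.1 and 21.4 CPM against 15.8 and 14.0 CPM, with a log2 change of −0.39 (SE 0.18, adjusted p = 0.655). Insig2 changed by 0.028 with overlapping groups, and Stard4, which carries cholesterol between membranes, by 0.59 (adjusted p = 0.298). An unadjusted p under 0.05 was found for 4 of the 6 with limma. With DESeq2 and some other settings Insig1 passed, in 9 of 21 alternatives.

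Among fatty acid genes 4 of 11 tested members were higher and 7 did not pass. Scd2 stood at 96.3 and 122 CPM in the libraries numbered 1 and at 203 and 244 CPM in those numbered 2, a log2 change of 1.01 (SE 0.15, adjusted p = 0.00184). The related desaturase gene Scd1 stood at 146 and 146 CPM and at 238 and 289.6 CPM (0.83, adjusted p = 0.00841). For both desaturases the groups were well apart. Acly, which frees acetyl-CoA from citrate, stood at 88.6 and 85.5 CPM and at 135 and 167 CPM (0.76, adjusted p = 0.0104). Fasn, the fatty acid synthase gene, stood at 41.0 and 33.3 CPM and at 60.1 and 93.5 CPM (0.95, adjusted p = 0.0284), with the Tdgf1 siRNA library numbered 2 well above its control. Me1, the malic enzyme gene that yields NADPH, changed by 0.12 and Acss2, which activates acetate, by 0.28, and neither passed. Elovl5, an elongase gene of polyunsaturated fatty acids, changed by −0.32 and Fads1 by 0.041. Acaca changed by 0.63, Elovl1 by 0.53 and Elovl6 by 0.34, each without overlap and without passing.

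Over all 35 tested members the median log2 change was 0.83, against −0.03 for all genes tested, and 33 were positive. Groups did not overlap for 32 members, against 34.1% of all genes. The difference had the same direction in both siRNA arms for most of them: 30 of the 35 were higher in number 2 in the control pair and in the Tdgf1 siRNA pair, against 20.2% of all genes. Idi1 differed 3.22-fold in controls and 3.21-fold with Tdgf1 siRNA, Msmo1 2.77-fold in controls and 2.78-fold with Tdgf1 siRNA, and Hmgcs1 2.11-fold in controls and 2.22-fold with Tdgf1 siRNA. Cyp51 (2.88-fold in controls and 4.61-fold with Tdgf1 siRNA) and Sqle (2.16-fold in controls and 4.49-fold with Tdgf1 siRNA) differed more with Tdgf1 siRNA. Marker sums of the lineages overlapped between the numbers: trophectoderm came to 5286 to 6577 CPM in number 1 and 5944 to 7544 CPM in number 2, epiblast to 258 to 332 and 253 to 298 CPM, and primitive endoderm to 358 to 367 and 305 to 369 CPM. At late blastocyst the trophectoderm sum rested largely on Krt8 and Krt18 (means of 2173 and 3340 CPM), and the primitive endoderm sum on Gata6 (230 CPM). Overlap of the sums thus does not cover each marker. Sums of 7 cumulus and granulosa cell markers and of 7 blood markers were at most 6.90 and 9.88 CPM in these 4 libraries. The part in the result of the higher number of genes detected in the libraries numbered 1 was not tested.

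The count rested on the 4 late blastocyst libraries to different degrees. It was 8 without the library labelled Tdgf1 siRNA 1, 7 without Tdgf1 siRNA 2, 12 without control 2 and 15 without control 1. Acat2, Cyp51, Fdft1, Fdps, Hmgcs1, Idi1 and Msmo1 passed under all 21 alternatives. Strand is not stated for the libraries, so reads of genes that overlap on opposite strands could not be separated. For Fdps and Tm7sf2 the overlapping gene lies on the same strand, where strand could not separate reads either. Fdft1 shares 18.3% of its exonic length with Ctsb on the opposite strand, and Ctsb stood at 176.5 to 200.2 CPM in the late blastocyst libraries numbered 1 and at 168 to 191 CPM in those numbered 2. Cyp51 shares 3.76% with Akap9 (49.9 to 68.3 CPM and 73.3 to 76.7 CPM, in the same order), and Tm7sf2 12.1% with Vps51 (13.2 to 19.3 CPM and 18.4 to 20.8 CPM). Fdps shares 26.7% with Gm43738, Hmgcs1 12.1% with Gm48342 and Idi1 9.21% with Gm48574, for which no level was read.

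**Figure D3:**
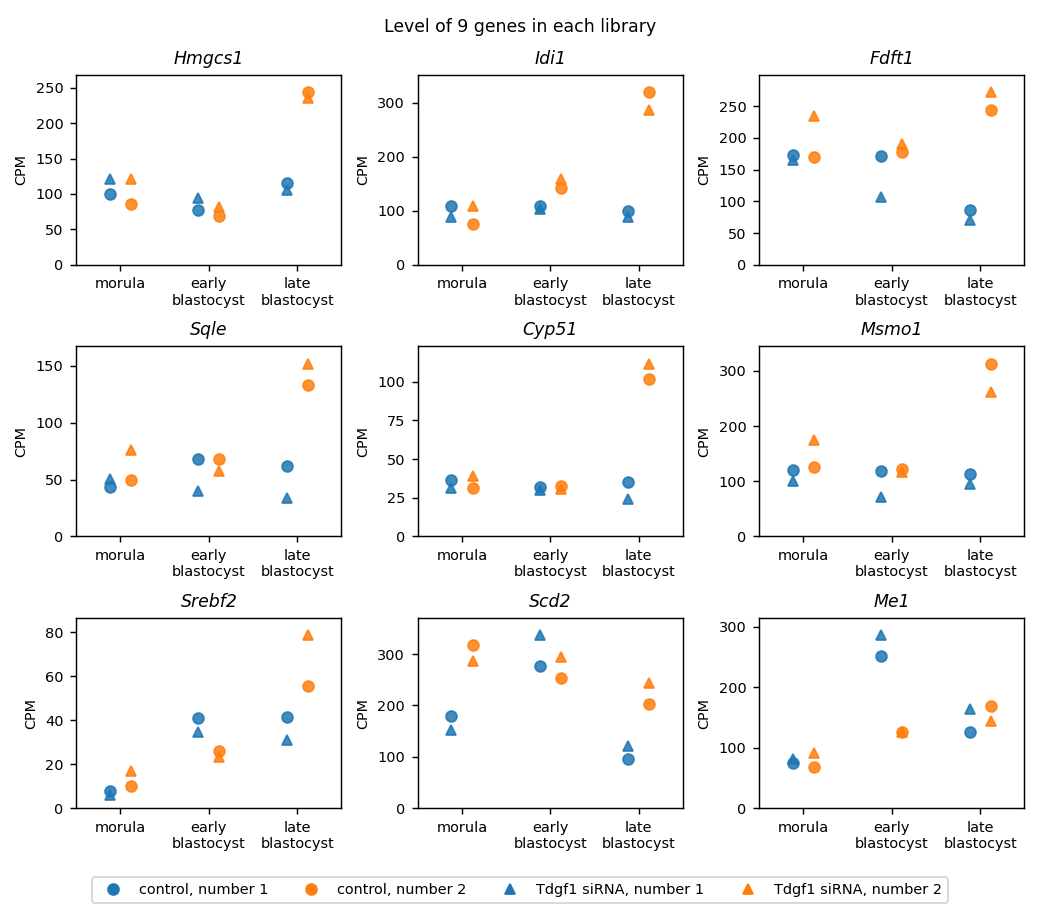
Level in CPM (vertical axis, from 0) of 9 genes in each of the 12 libraries, by stage (horizontal axis). Colour gives the library number and shape the siRNA. In the late blastocyst column of Hmgcs1, Idi1, Fdft1, Sqle, Cyp51 and Msmo1 both libraries numbered 2 stand above both numbered 1, while at the earlier stages the numbers lie closer together.

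At morula and early blastocyst the members differed by number about as often as other genes. In morulae, 2 of 35 members differed between the numbers (3.25% of all genes did): Scd2 at 180.5 and 153 CPM in number 1 and 319 and 286 CPM in number 2 (log2 change 0.85, SE 0.15, adjusted p = 0.00329), and Dhcr7 at 32.7 and 30.7 and 46.2 and 57.8 CPM (0.65, adjusted p = 0.0377). Both were higher in number 2. Scd2 was also among the 15 members higher in number 2 at late blastocyst, as were Idi1, Acly and Scd1 of those that follow. In early blastocysts 5 of 35 differed, 2 higher and 3 lower, against 12.3% of all genes (3.53% higher and 8.77% lower). Idi1 (0.48, adjusted p = 0.0497) and Fads1 (0.78, adjusted p = 0.026) were higher in number 2. Me1 stood at 251 and 286 CPM in number 1 and at 125 and 125 CPM in number 2, a log2 change of −1.08 (SE 0.15, adjusted p = 0.0006). Acly (−0.64, adjusted p = 0.00553) and Scd1 (−0.44, adjusted p = 0.0496) were lower in number 2 as well. The trophectoderm marker sum moved with the number at that stage, at 3428 to 3690 CPM in number 1 and 1652 to 1759 CPM in number 2, and its part was not tested. With TMM scaling the split of all genes called there went from 379 higher and 943 lower to 706 and 465, and the median of all genes from −0.12 to −0.01. With 1 library left out the count of members was 0 to 2 at morula and 1 to 6 at early blastocyst.

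The signed difference, number 2 minus number 1, was not the same at the 3 stages. A moderated F test of it over the 3 stages passed for 22 of 35 members, against 6.22% of all genes. It was more positive at late than at early blastocyst for 17 members, against 1.42% of all genes, and more negative for 0, against 1.17%. Cyp51 (1.72, SE 0.25, adjusted p = 0.00364) and Acat2 (1.13, SE 0.17, adjusted p = 0.00446) were among those 17, with early differences of 0.023 and −0.10. Acly and Scd1 changed sign, from −0.64 to 0.76 and from −0.44 to 0.83, and the difference of Me1 went from −1.08 to 0.12. Against morula it was more positive at late blastocyst for 9 members, against 0.539% of all genes, and more negative for 0, against 0.93%. The 9 were Acat2, Hmgcs1, Idi1, Fdps, Fdft1, Lss, Cyp51, Stard4 and Fasn. Between early blastocyst and morula the members called were Dhcr7, Srebf2, Acly, Me1, Scd1, Scd2 and Elovl5, all more negative at early blastocyst. They were not among the 9, and late blastocyst minus morula came to 0.09 for Me1, 0.17 for Scd2, 0.16 for Srebf2 and 0.40 for Acly. For these 4, which are among the 17, early blastocyst was thus the stage that stood apart.

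How the members changed as the cavity formed was read from the early blastocyst and morula libraries, 4 a stage, with both siRNA arms averaged. Of 35 members 10 rose and 3 fell, against 19.7% and 14.0% of all genes, and the median change was 0.13, against 0.05. Groups did not overlap for 15 members, against 33.7% of all genes. Levels below are for controls 1 and 2 and Tdgf1 siRNA 1 and 2 in turn. Srebf2 went from 7.93, 9.98, 6.13 and 17.0 CPM at morula to 40.9, 26.2, 34.6 and 23.5 CPM at early blastocyst. All 4 later libraries were above all 4 earlier ones, and the log2 change was 1.36 (SE 0.29, adjusted p = 0.00271). Acss2 went from 19.1, 14.7, 14.9 and 15.2 CPM to 48.9, 35.9, 52.6 and 39.6 CPM, again without overlap, a log2 change of 1.28 (SE 0.16, adjusted p = 9.84e-05). Gss, which shares 3.89% of the exonic length of Acss2 on the opposite strand, also stood higher at early blastocyst (158 to 237 CPM, against 36.2 to 77.3 CPM at morula).

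Me1 went from 74.1, 67.4, 80.6 and 91.5 CPM at morula to 251, 125, 286 and 125 CPM at early blastocyst, where the libraries numbered 1 stood far above those numbered 2 and both above every morula library. Its log2 change was 1.20 (SE 0.24, adjusted p = 0.00196). Mvk, the mevalonate kinase gene, went from 4.76, 7.13, 8.37 and 11.0 CPM to 32.8, 17.1, 21.5 and 15.9 CPM with a log2 change of 1.14 (SE 0.26, adjusted p = 0.00485). It rose with Acat2 and Pmvk, while Hmgcs1, Mvd, Idi1 and Fdps did not pass. Of the squalene genes 0 of 3 passed, and of the genes after lanosterol Nsdhl rose (0.59, adjusted p = 0.0472) and 7 did not pass. The rise of Nsdhl passed in 10 of 29 alternatives. Insig1 rose from 34.6, 33.4, 37.3 and 54.0 CPM to 95.1, 63.5, 67.4 and 94.1 CPM (0.95, adjusted p = 0.0363). Srebf1 stayed within 18.0 to 25.9 CPM over the 8 libraries (0.13, adjusted p = 0.546). Scd1 and Elovl1, an elongase gene of very long chains, were the other 2 that rose.

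Scap fell from 21.2, 25.7, 24.6 and 20.6 CPM to 14.5, 12.9, 13.9 and 12.6 CPM, with no overlap and a log2 change of −0.64 (SE 0.17, adjusted p = 0.00966). Stard4 changed by −0.59 (SE 0.19, adjusted p = 0.0319) with overlapping groups, and Acaca went from 31.1, 37.0, 34.4 and 29.7 CPM to 19.9, 22.7, 23.3 and 22.0 CPM, a log2 change of −0.52 (SE 0.19, adjusted p = 0.0475). None of these 3 falls passed when the same-numbered libraries were averaged first. With that replicate block, which uses the number as a pair, 6 members rose (Acss2, Elovl1, Me1, Mvk, Pmvk and Srebf2) and 0 fell. The fall of Acaca lost its call in 19 of 29 alternatives and that of Stard4 in 10, and the rise of Insig1 lost its call in 15.

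**Figure D4:**
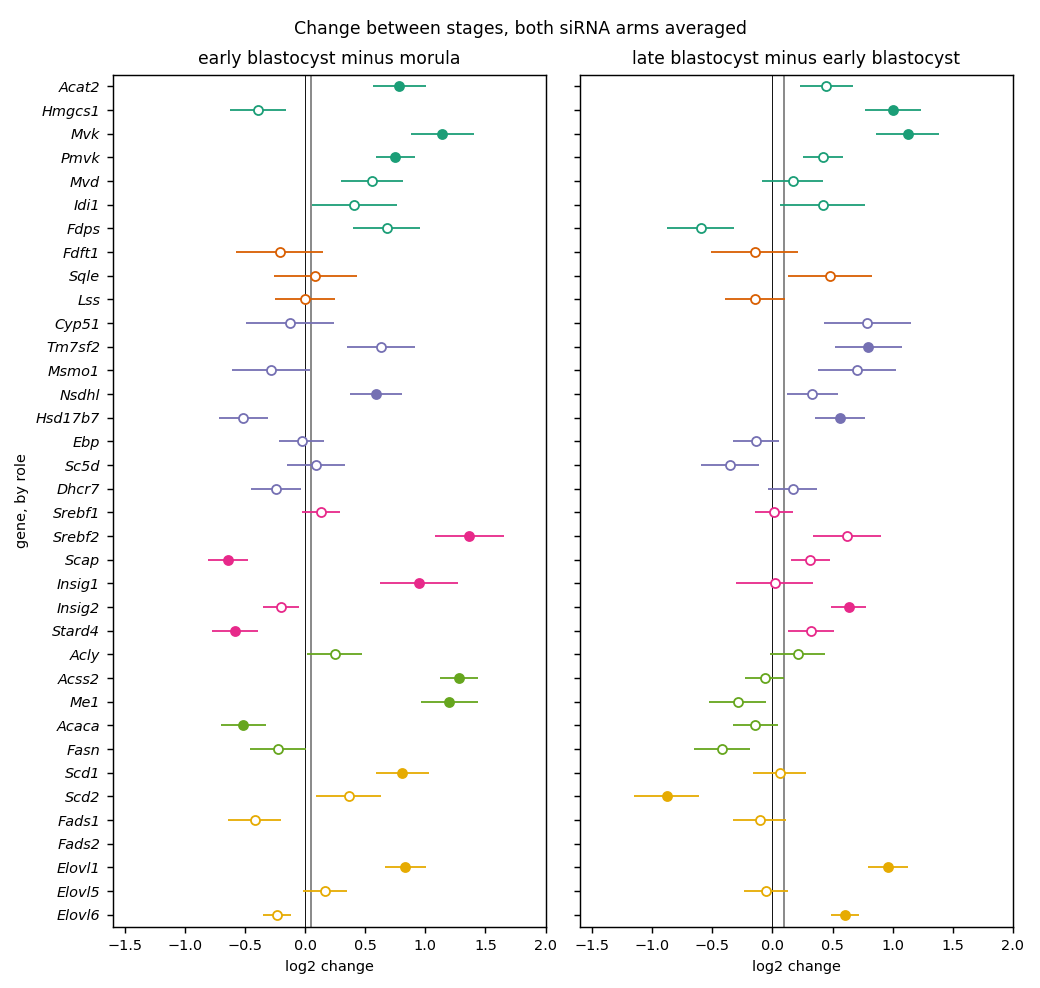
Log2 change of each tested gene (vertical axis, by role) from morula to early blastocyst and from early to late blastocyst (horizontal axes), both siRNA arms averaged, with bars of 1 SE. Filled points passed at an adjusted p under 0.05 and the grey line is the median of all genes. Srebf2, Acss2, Me1 and Mvk lie farthest right in the first panel, and Mvk, Hmgcs1 and Elovl1 in the second, where Scd2 lies farthest left.

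From early to late blastocyst 7 members rose and 1 fell, against 27.0% and 17.7% of all genes, and groups did not overlap for 6, against 43.6%. Mvk rose again, to 39.0, 63.2, 32.6 and 77.2 CPM, a log2 change of 1.12 (SE 0.26, adjusted p = 0.00366). Hmgcs1 went from 76.7, 68.6, 94.4 and 81.3 CPM to 116, 244, 106 and 235 CPM without overlap (1.001, SE 0.23, adjusted p = 0.00366). Elovl1 went from 77.6, 58.5, 51.4 and 61.4 CPM to 111, 136, 93.1 and 163 CPM (0.96, SE 0.17, adjusted p = 0.000535), with all 4 later libraries above. Tm7sf2 went from 7.11, 2.47, 5.66 and 4.44 CPM to 10.2, 13.8, 4.89 and 18.1 CPM (0.80, SE 0.28, adjusted p = 0.0331), with overlap. Elovl6, Insig2 and the ketoreductase gene Hsd17b7 also passed. With the replicate block the calls of Tm7sf2 and Hsd17b7 were lost, and they passed in 14 and 12 of 28 alternatives. Scd2 fell from 278, 253, 337 and 295 CPM to 96.3, 203, 122 and 244 CPM (−0.88, SE 0.27, adjusted p = 0.0178), with all 4 later libraries below the earlier ones and those numbered 1 lowest.

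These counts turned on which late blastocyst libraries entered. Without the 2 numbered 1, 18 members rose and 0 fell, against 16.3% and 11.5% of all genes in the same fit. Without the 2 numbered 2, 4 rose and 6 fell, against 17.1% and 10.9%. Hmgcs1 changed by 1.54 in the first case and by 0.46 in the second, Mvk by 1.58 and 0.67, and Scd2 by −0.37 and −1.39. Leaving out the library labelled late blastocyst Tdgf1 siRNA 1 alone gave 14 that rose. Hmgcs1, Elovl1 (1.23 and 0.69), Elovl6 (0.78 and 0.43) and Insig2 (0.65 and 0.62) passed in both cases. Tm7sf2 (1.22 and 0.38) and Hsd17b7 (0.91 and 0.22) passed in the first case and not in the second, and Mvk likewise. The fall of Scd2 did not pass in the first case, nor with the replicate block, and it passed in 20 of 29 alternatives.

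Over the whole span from morula to late blastocyst 15 members rose and 2 fell, against 36.6% and 24.3% of all genes, whose median was 0.13 here and 0.01 with TMM scaling. Groups did not overlap for 14 members, against 58.9%. The largest rises were those of Mvk (2.26, SE 0.26, adjusted p = 6.40e-06), Srebf2 (1.98, SE 0.29, adjusted p = 4.37e-05), Elovl1 (1.80, SE 0.17, adjusted p = 1.02e-06) and Tm7sf2 (1.43, SE 0.28, adjusted p = 0.000584). Without the late blastocyst libraries numbered 1, and then without those numbered 2, these changes were 2.72 and 1.81 for Mvk, 2.39 and 1.57 for Srebf2, 2.06 and 1.53 for Elovl1 and 1.85 and 1.01 for Tm7sf2, and they passed in both cases. Mvk rose at each step, and the step of Srebf2 after early blastocyst did not pass. Late blastocyst libraries of Srebf2 stood at 41.6, 55.8, 31.1 and 78.7 CPM, all above the morula libraries. Acaca fell (−0.66, SE 0.19, adjusted p = 0.00755), with late levels of 11.9, 23.8, 18.6 and 26.6 CPM, all below the morula libraries. Its change was −0.34 and −0.98 in those cases, the first of which did not pass. Fasn went from 77.5, 81.3, 104 and 79.8 CPM to 41.0, 60.1, 33.3 and 93.5 CPM, with overlap, and its fall (−0.65, SE 0.23, adjusted p = 0.0274) was −0.17 without the libraries numbered 1 and no longer passed (−1.13 without those numbered 2). Without the 2 late blastocyst libraries numbered 2, 8 members rose and 8 fell, against 29.1% and 18.7% of all genes, and without the 2 numbered 1, 20 rose and 0 fell, against 28.7% and 20.2%. By branch, with all late blastocyst libraries, 10 of 24 sterol genes rose and 0 fell, and 5 of 11 tested fatty acid genes rose and 2 fell. No test compared these shares, and they turned on the library number. Without the late blastocyst libraries numbered 2 the sterol genes Fdft1 and Fdps changed by −1.20 and −0.58. Without those numbered 1 they changed by 0.48 and 0.75, while Mvk, Srebf2 and Tm7sf2 were positive in both cases.

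The siRNA comparison was made between the arms as labelled, and the members did not differ between them by the test used. Tdgf1 stood at 116.5% of its control in the early blastocyst pair numbered 2 and at 83.6% in the late blastocyst pair numbered 2. Comparisons that hold the early blastocyst pair, among them the mean over stages, thus do not measure less Tdgf1 in every pair. At each stage and in the mean over stages 0 of 35 passed with limma, and 0 had an unadjusted p under 0.05. Of all genes, 0.0% passed in each of these comparisons, and 194, 112, 221 and 268 genes had an unadjusted p under 0.05 at morula, early blastocyst, late blastocyst and in the mean. On the recovered reads edgeR called 0 genes in each and DESeq2 1 gene, at late blastocyst, which was no member. With 2 libraries against 2 this does not show that the arms were alike. In the limma fit of group means the step between numbers is also part of the scatter. With the number as a pair, 0 members passed as well.

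The members with the smallest p-values had changes close to their errors. In morulae Mvk stood at 4.76 and 7.13 CPM in controls and at 8.37 and 11.0 CPM with Tdgf1 siRNA, a log2 change of 0.48 (SE 0.37), with Stard4 at 0.33 (SE 0.27) and Hmgcs1 at 0.37 (SE 0.33). In early blastocysts Ebp, the isomerase gene, stood at 125 and 138 CPM in controls and at 75.6 and 113 CPM in the libraries labelled Tdgf1 siRNA, without overlap. Its change of −0.49 (SE 0.27) had the smallest unadjusted limma p of the members in any stage, 0.0897. Insig2 (0.27, SE 0.21) and Elovl1 (−0.25, SE 0.24) followed. In late blastocysts they were Acaca (0.33, SE 0.27), Pmvk (−0.19, SE 0.23) and Elovl5 (0.21, SE 0.26). In the mean over stages Ebp changed by −0.25 (SE 0.15), Stard4 by 0.25 (SE 0.16) and Elovl5 by 0.15 (SE 0.15). Groups did not overlap for 8, 10 and 1 of the 35 members at the 3 stages, against 27.5%, 19.4% and 31.9% of all genes.

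Same-numbered pairs varied in their direction. The median siRNA difference of the 35 members was 0.00 and 0.20 in the morula pairs numbered 1 and 2, −0.13 and 0.02 in the early blastocyst pairs, and −0.09 and 0.14 in the late blastocyst pairs. The late blastocyst pair numbered 1 had 25 negative members, with Insig1 lowest at −0.98, and the pair numbered 2 had 22 positive ones. Insig1 there was at 72.1 CPM in control 1 and 34.7 CPM in Tdgf1 siRNA 1, but at 107 CPM in control 2 and 148 CPM in Tdgf1 siRNA 2. For Idi1, Cyp51 and Fdft1 the step between numbers at late blastocyst was larger than the difference between arms there.

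**Figure D5:**
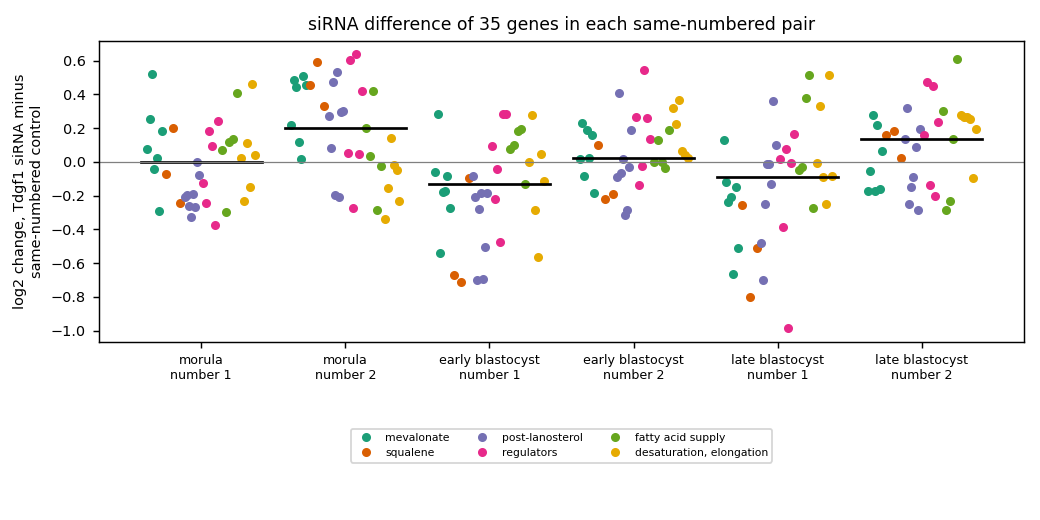
Log2 change from the control to the Tdgf1 siRNA library of the same number (vertical axis) for 35 genes, coloured by role, in each of the 6 pairs (horizontal axis), with the median as a line. Points scatter on both sides of 0 in every pair, and the medians lie between −0.13 and 0.20.

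Neighbouring lipid pathways were read from 5 lists, 8 genes of the isoprenoid branch, 6 of SREBP processing and its partner factors, 6 of the sterol sensor LXR and sterol esters, 11 of fatty acid oxidation and 10 of glycerolipid synthesis, of which 8, 6, 3, 11 and 9 were tested. Between the numbers at late blastocyst 0 genes of the 5 lists passed, where 15 members and 0.326% of all genes had. With so small a share of all genes, a count of 0 does not set these lists apart. Changes of these lists to late blastocyst are given with all late blastocyst libraries only, not by number. From morula to early blastocyst, where 19.7% of all genes rose and 14.0% fell, 7 of the 11 oxidation genes rose and 0 fell, among them Etfb, which hands electrons to the respiratory chain, from 208 ± 31.8 to 406 ± 43.8 CPM (SD, n = 4), a log2 change of 0.96 (SE 0.12, adjusted p = 9.82e-05). Acadvl, the dehydrogenase gene of very long chains, changed by 0.97 (SE 0.14, adjusted p = 0.00031). From early to late blastocyst, where 27.0% of all genes rose and 17.7% fell, 4 of the 11 rose and 2 fell, and Slc25a20, the carnitine carrier of the mitochondrial membrane, fell most (−1.13, SE 0.18, adjusted p = 0.000229).

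Soat1, which esterifies cholesterol for storage, rose at both steps, from 10.4 ± 4.83 CPM at morula to 27.4 ± 11.8 and 95.5 ± 25.6 CPM (SD, n = 4 each). Its log2 changes were 1.12 (SE 0.26, adjusted p = 0.00469) and 1.73 (SE 0.26, adjusted p = 0.000162). In the same list Nr1h2, which encodes LXR-beta, and Lpcat3, a phospholipid acyltransferase gene, fell from early to late blastocyst. Between the numbers, Soat1 was lower and Slc25a20 higher in number 2 at early blastocyst, and Lpcat3 was higher in number 2 at morula (limma, adjusted p under 0.05). Of the 9 tested glycerolipid genes 3 rose and 1 fell at the first step and 2 rose and 2 fell at the next. Dgat1 and Dgat2, the acyltransferase genes that complete triglycerides, went opposite ways at the late step, 0.54 (SE 0.15, adjusted p = 0.00988) and −1.11 (SE 0.18, adjusted p = 0.000252). Among partners of SREBP, Nfyb, a subunit of the CCAAT-binding factor NF-Y, fell at both steps (−0.42, adjusted p = 0.0361, and −0.39, adjusted p = 0.0397). Mbtps1, the Golgi protease that makes the first cut in SREBP, rose at the late step (0.54, SE 0.16, adjusted p = 0.0163). It was the 1 gene of the 6 in this list that rose at any step. At the first step 0 rose and 3 fell (Mbtps2, Nfyb and Sp1), against 19.7% and 14.0% of all genes. From morula to late blastocyst 1 rose and 4 fell (Mbtps2, Nfyb, Nfyc and Sp1), against 36.6% and 24.3% of all genes. In the isoprenoid branch 3 of 8 rose (Fntb, Pggt1b and Coq2) and Dhdds fell from early to late blastocyst.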

How the data were processed

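RNA-seq values of 36 genes were described in 12 libraries, prepared, per the labels' protocols, with NEBNext Ultra DNA reagents after SMARTer Ultra Low Input amplification of cDNA. HISAT2 2.1.0, Cufflinks, HTSeq, edgeR and mm10 are named in the submitters' processing notes without their roles. The authors deposited 1 table with columns named RPKM, per the file headers. Every column summed to 279173.646, however, and all values of a library were whole multiples of the same step, whatever the gene's length (100% whole within 0.01 reads). The deposited values are therefore CPM divided by 3.582. Levels were multiplied back to CPM, and whole reads were recovered, 10524640 to 13770264 per library. Intervals from reads cover counting error only, since amplified reads are not independent molecules. Libraries of 1 group differed by more than the noise of sampling (chi-square per gene 20.7 to 49.8), so none were merged.

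Differential expression was tested with limma 3.58.1 (trend) in R 4.3.3 on log2(deposited value + 1), a pseudocount of 3.582 CPM, which understates changes of low genes. Genes whose mean reached 1 deposited unit (10751) entered 1 fit of 6 group means, with 6 residual and 7.55 prior degrees of freedom. Benjamini-Hochberg adjustment ran over all of them within a comparison, with a threshold of 0.05. Differences between library numbers came from a fit of 6 stage-and-number means (6 residual, 11.6 prior), added after the values were seen. edgeR 4.0.16 and DESeq2 1.42.0 ran on the recovered reads as alternatives, and other pseudocounts, filters, scalings and subsets of libraries were tried. The fits were also run on simulated data, in which every library was drawn independently around planted changes. That run cannot vouch for the tests where same-numbered libraries vary together. Coordinates and exon lengths are from GENCODE M21 and promoters from RefSeq (GRCm38.p6). The design had assumed RPKM, and its test was kept. Every member is accounted for, and the 4 called members with the largest change in each direction per stage comparison, and the 3 smallest p-values per siRNA comparison, are given with their statistics. The members, lists and tests were chosen with earlier results of these data known.

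Same-numbered control and Tdgf1 siRNA libraries deviated together from their group means in morulae and early blastocysts, with correlations over all tested genes of 0.458 and 0.593. In late blastocysts that correlation was 0.101, so over all tested genes the number was at most a weak pair there. Over the 35 tested members the correlations were 0.424 for morulae, 0.739 for early and 0.692 for late blastocysts. The number was used as a pair in an alternative fit. This pairing was read from the data, since no label ties a number to a day or litter.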

Additional observations from a re-analysis of the deposited data

Results flagged for a closer look

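The difference between libraries numbered 2 and 1 was not the same at the 3 stages for 22 of the 35 tested members, by a moderated F test of the number-by-stage term in limma adjusted over 10751 genes. In the mevalonate pathway the adjusted p-values were Acat2 0.0019, Hmgcs1 0.00407, Mvk 0.0259, Pmvk 0.0326, Mvd 0.0192, Idi1 0.000665 and Fdps 0.00378. In the squalene steps they were Fdft1 0.00495, Sqle 0.0437 and Lss 0.00886, and after lanosterol Cyp51 0.000822, Tm7sf2 0.0498, Msmo1 0.0327 and Dhcr7 0.0497. Among the regulators and carriers they were Srebf2 0.0239 and Stard4 0.0337. Among the fatty acid genes they were Acly 0.00083, Me1 0.00501, Fasn 0.029, Scd1 0.00381, Scd2 0.00467 and Elovl5 0.0498.

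At late blastocyst the difference was positive for all of these except Elovl5, and Me1 changed little (0.12). Me1, Acly and Scd1 were lower in the early blastocyst libraries numbered 2, and Dhcr7 and Scd2 were higher in the morula libraries numbered 2. For siRNA against control the same kind of test passed for 0 of the 10751 genes. The part of the sum of trophectoderm markers, which moved with the number at early blastocyst, was not tested.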

How the results depend on the processing

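The 15 members that were higher in late blastocyst libraries numbered 2 were 12 to 18 under other pseudocounts, filters, scalings and tools, and 17 with the siRNA arm as a term (the replicate block), with the 15 among them. Leaving out 1 library gave 7 to 17 higher and 0 lower. At early blastocyst the 5 members that differed by number were 3 with a pseudocount of 0.1 and 1 with no filter (1 to 6 without 1 library), and the 2 at morula were 0 with no filter (0 to 2).

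From morula to early blastocyst, 5 members rose and 1 fell with no filter, 6 and 0 with the replicate block, 6 and 0 in controls only, 4 and 0 in Tdgf1 siRNA only, and 5 and 0 without both morula libraries numbered 1. Without both morula libraries numbered 2, 1 fell, and 5 rose without both early blastocyst libraries numbered 1. From early to late blastocyst, 4 rose and 0 fell in controls only, 3 and 0 in Tdgf1 siRNA only, 18 and 0 without both late blastocyst libraries numbered 1, and 4 and 6 without both numbered 2. Without both early blastocyst libraries numbered 2, 4 rose, and 0 fell without both numbered 1, 0 with no filter and 0 with the replicate block, which kept 5 of the 8 calls. From morula to late blastocyst, 8 rose and 8 fell without both late blastocyst libraries numbered 2, and 0 fell without both numbered 1. The 2 that fell were 4 with TMM, 4 with quantile normalization, 4 with edgeR, 5 with DESeq2, 1 with no filter, 1 without both morula libraries numbered 2, 1 with the replicate block, 1 in controls only and 0 in Tdgf1 siRNA only. The replicate block kept 12 of those 17 calls. The cause of these shifts was not tested, apart from the fewer libraries in the subsets.

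Leaving out 1 library at a time gave 7 to 13 higher and 1 to 3 lower from morula to early blastocyst, 5 to 14 and 0 to 3 from early to late blastocyst, and 10 to 19 and 1 to 4 from morula to late blastocyst. In the second of these comparisons 14 rose without late blastocyst Tdgf1 siRNA 1. Counts of falls were small and moved by over 1.5 times: 1 fell in the first comparison without morula control 1, morula Tdgf1 siRNA 1 or early blastocyst control 2. In the second, 0 fell without late blastocyst control 1 or Tdgf1 siRNA 1, 3 without control 2 or Tdgf1 siRNA 2 of that stage and 2 without early blastocyst Tdgf1 siRNA 2. In the third, 4 fell without late blastocyst control 2 or Tdgf1 siRNA 2, and 1 without late blastocyst control 1, morula control 1 or morula control 2. By number, 0 members differed at morula without morula control 2 or Tdgf1 siRNA 1, and 1 at early blastocyst without its control 2. The siRNA comparisons stayed at 0 members in each of these settings and with the block. A few siRNA changes, 0 of them past the threshold, turned sign: Elovl1 at early blastocyst without both libraries numbered 1 (0.065), and, at late blastocyst, 3 others. With 1 library left out, Acaca ran from −0.085 (without control 1) to 0.74, Pmvk from −0.43 to 0.051 (without Tdgf1 siRNA 1; 0.032 without control 2), and Elovl5 from −0.10 (without Tdgf1 siRNA 1) to 0.52, with −0.10 without both numbered 1. Where a group was left with 1 library, it was assumed to vary like the others. Depth limits Fads2, with at most 15 reads in a library.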

Other observations

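Besides the members, 10 genes were higher and 10 lower in the late blastocyst libraries numbered 2 than in those numbered 1. The genes given here were chosen after their values were seen. Aacs, which encodes an acetoacetyl-CoA synthetase that feeds ketone bodies into lipid synthesis, was higher by 1.03 (SE 0.21, adjusted p = 0.0352). The largest change was that of H2-Bl, a class I histocompatibility gene, at 2.54 (SE 0.32, adjusted p = 0.000406). The ribosomal protein genes Rpl26 (1.26, SE 0.12, adjusted p = 2.43e-05) and Rps18 (0.70, SE 0.13, adjusted p = 0.0284) were higher as well, and reads of such gene families with near-identical copies may have been split between copies. Lars2, the mitochondrial leucyl-tRNA synthetase gene (−0.91, SE 0.14, adjusted p = 0.00418), and Coil, which encodes the Cajal body protein coilin (−1.11, SE 0.22, adjusted p = 0.0352), were lower.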
